A study of Mus musculus with 4 samples.

Results

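Genes for 7 ion channel and sodium pump proteins of the sarcolemma, the surface membrane of the muscle cell, were followed in mouse primary myotubes treated with EDA-A2. The genes were taken by name: the sodium channel gene Scn4a, the chloride channel gene Clcn1, the potassium channel genes Kcnn3, Kcna7, Kcnj2 and Kcnj11, and the sodium pump gene Atp1b1. They are 7 of the 53647 genes in the count tables, and all 7 passed the filter on low counts. EDA-A2 is an isoform of ectodysplasin A, a ligand of the tumour necrosis factor family that binds the receptor EDA2R. The myotubes were wild type (WT), were grown from limb-muscle myoblasts of pups aged 2 to 3 days, and were harvested at 72 h of differentiation. There were 2 Control libraries and 2 libraries of cells given EDA-A2 at 250 ng/ml for the last 24 h, and the labels do not say what the Control cells received. Cultured myotubes of this kind have no nerve, and the levels below are those of the whole culture, which also held dividing and unfused cells.

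A muscle action potential is carried by sodium entering through NaV1.4, the protein of Scn4a. It is ended and kept from repeating by potassium channels and by the chloride channel ClC-1, the protein of Clcn1, which carries most of the resting membrane conductance of adult fibres. The inward rectifier Kir2.1 (Kcnj2) holds the resting potential, Kir6.2 (Kcnj11) forms the pore of the ATP-sensitive channel, and Kv1.7 (Kcna7) opens on depolarization. The calcium-activated channel SK3 (Kcnn3) is known from immature and denervated muscle. The sodium pump, an enzyme of an alpha and a beta subunit, restores both ion gradients, and Atp1b1 encodes its beta 1 subunit. Loss or gain of function of SCN4A, CLCN1 and KCNJ2 causes myotonias and periodic paralyses in people.

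Potassium channel genes share a short coding element, shown here for Kcna7, Kcnj2 and Kcnj11 because it is what makes their proteins potassium-selective: the selectivity filter of the pore. Each stretch has 24 bases of coding sequence, read 5' to 3' from the GRCm39 genome, and capitals mark the codons for glycine, an aromatic residue and glycine.
Kcna7, chr7:45058882-45058905, plus strand: accacggttGGCTATGGGgacatg
Kcnj2, chr11:110963030-110963053, plus strand: acaaccattGGCTATGGTttcagg
Kcnj11, chr7:45748914-45748937, minus strand: gtgaccattGGTTTCGGCgggcgc
The aromatic residue is tyrosine in Kcna7 and Kcnj2 and phenylalanine in Kcnj11. Within coding sequences of 489, 428 and 390 codons, these stretches begin at codons 390, 141 and 129.

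Counts on genes summed to between 29444155 and 29746863 per library, so depth was nearly equal. Of the genes tested, 4.57% were called at an adjusted p-value under 0.05 (edgeR's quasi-likelihood test, adjusted over all 15173 genes tested), 2.45% higher and 2.13% lower after EDA-A2. Under scaling to total counts, 485 genes were higher and 194 lower, against 371 and 323 here. When either Control library was left out, edgeR called 0 genes of all those tested, with 2179 and 2449 genes at an unadjusted p under 0.05, so every call below rests on both Control libraries. Nothing in the labels says that replicates came from separate cultures, and p-values then measure only the spread between these libraries. Normalized counts put all libraries on their mean effective size, FPKM are CPM (counts scaled to library size) per kilobase of exon, and each error is the SD of 2 libraries.

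Of the 7 genes, Kcna7 was higher after EDA-A2, by 1.64-fold, and 0 were lower. Beside the background of 2.45% higher and 2.13% lower over all genes tested, that is 1 of 7 and 0 of 7, while 3 of the 7 had an unadjusted p under 0.05, against 15.6% of all genes tested. The control and EDA-A2 libraries did not overlap for 4 genes: Kcna7 and Atp1b1 lay above the controls, and Kcnj2 and Scn4a lay below them. Of all genes tested, 45% did not overlap, 22.8% above and 22.2% below, so 4 of 7 is near the background. The median log2 fold change of the 7 was -0.04, against -0.00 over all genes tested. In bulk RNA, fewer cells of a type and less RNA per cell cannot be told apart.

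**Figure D1:**
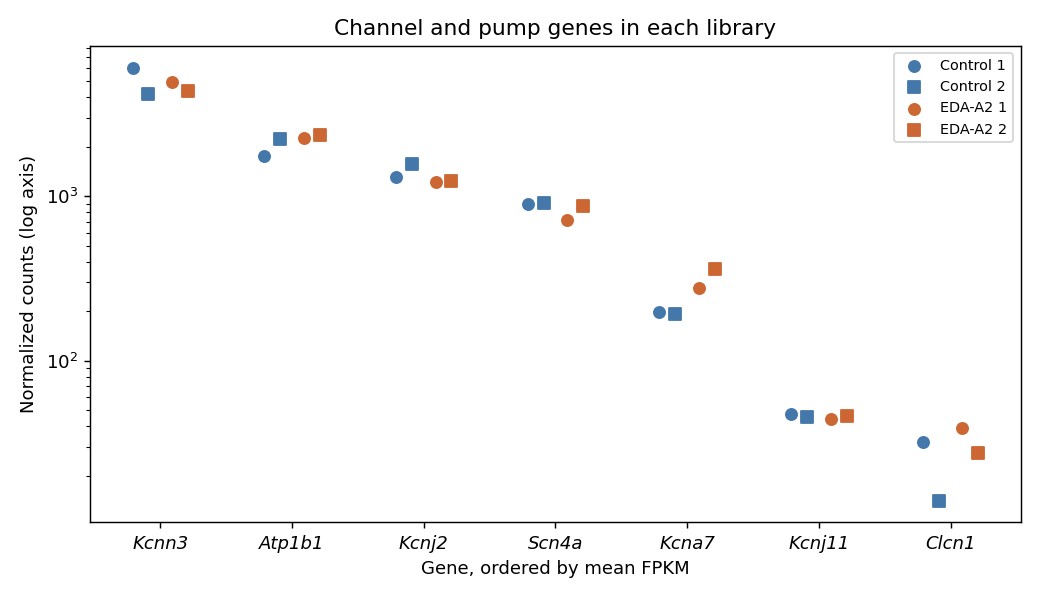
Normalized counts (log axis) of the 7 genes in each of the 4 libraries, with controls in blue, EDA-A2 in orange, replicate 1 as circles and replicate 2 as squares. The EDA-A2 points of Kcna7, at 275 and 361, sit above the controls at 197 and 192, and those of Kcnj11 overlap the controls.

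Levels per length separated the genes more than the treatment did. Over the 4 libraries the mean FPKM was 15.9 for Kcnn3, 15.0 for Atp1b1, 8.22 for Kcnj2, 3.35 for Scn4a, 2.13 for Kcna7, 0.421 for Kcnj11 and 0.162 for Clcn1. Single libraries of neighbours in this order overlapped for Kcnn3 and Atp1b1 and for Scn4a and Kcna7, and the other neighbours did not overlap. The first pair trades places when the longest transcript is used as the length, with 21.5 for Atp1b1 and 20.0 for Kcnn3. Thus the immature-muscle channel gene Kcnn3 was among the most abundant of the 7, and Clcn1, whose protein dominates the resting conductance of adult fibres, was the least.

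Kcna7 (ENSMUSG00000038201, chr7:45055077-45061072, plus strand, GRCm39) encodes Kv1.7, a voltage-gated channel known from skeletal muscle and heart. Normalized counts of 197 and 192 in the controls compared with 275 and 361 after EDA-A2. Both treated libraries were above both controls, and the controls differed little from each other. The mean rose from 194 ± 3.67 to 318 ± 60.3 (SD, n = 2), a log2 fold change of 0.71 (SE, the standard error, 0.15, 95% interval 0.40 to 1.03, adjusted p = 0.0108, edgeR). That value stood at the 97.6th percentile of all log2 fold changes. DESeq2 gave an adjusted p of 0.0133. Leaving out a library kept the direction but mostly lost the call: 0.73 without Control replicate 1 (adjusted p = 0.34), 0.69 without Control replicate 2 (0.303), 0.50 without EDA-A2 replicate 2 (0.243) and 0.89 without EDA-A2 replicate 1 (0.000519). With every gene of at least 1 count tested, the value was 0.71 and the adjusted p 0.206.

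Within the Kv1 family, to which Kv1.7 belongs, Kcna7 was the main transcript. It made up 78.1% and 75.8% of the summed FPKM of the 8 Kcna genes in the controls and 82.7% and 87.4% after EDA-A2. The other Kv1 genes were sparse: Kcna2, Kcna5 and Kcna10 were listed at 0 in every library, and Kcna1 had at most 4 counts. A gene listed at 0 in the tables, here or below, is not thereby shown to be absent from these cells. Kcna3, Kcna4 and Kcna6, the others tested, had log2 fold changes of -0.05 (SE 0.49), -0.33 (SE 0.34) and 0.31 (SE 0.49) and were not called. With 2 libraries against 2 an exact permutation test of a share cannot give a p below 0.333. The shares, here and below, are therefore given without a test, and no background over other genes was computed for them.

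The promoter of Kcna7 is shown because it is the 1 gene of the 7 that was called, and that of Clcn1 because its window is the only 1 of the 7 with a MEF2 match. Each is the 250 bases before the annotated start in GRCm39, written 5' to 3' on the gene's strand, and capitals mark motif matches. The motifs searched on both strands were the E-box CANNTG, bound by MyoD-family factors, the MEF2 site YTAWWWWTAR and the NF-kB site GGRRNNYYCC. In these patterns Y is C or T, R is A or G, W is A or T, and N is any base.
Kcna7, chr7:45054827-45055076, plus strand: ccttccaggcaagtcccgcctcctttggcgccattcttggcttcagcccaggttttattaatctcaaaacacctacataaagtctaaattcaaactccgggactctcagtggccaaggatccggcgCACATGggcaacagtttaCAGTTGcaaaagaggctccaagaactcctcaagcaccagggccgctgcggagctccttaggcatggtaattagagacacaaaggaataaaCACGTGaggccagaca
Clcn1, chr6:42263345-42263594, plus strand: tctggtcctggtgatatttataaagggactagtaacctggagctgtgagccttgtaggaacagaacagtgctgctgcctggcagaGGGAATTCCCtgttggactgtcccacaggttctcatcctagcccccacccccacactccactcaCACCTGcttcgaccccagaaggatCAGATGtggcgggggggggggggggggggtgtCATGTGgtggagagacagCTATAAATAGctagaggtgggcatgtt
The Kcna7 window holds 3 E-boxes, at -124, -106 and -16 from the start, and no match to the other motifs. The Clcn1 window also holds 3 E-boxes, with a MEF2 match at -27 and an NF-kB match at -165. Of the 7 genes, Scn4a had the only other NF-kB match, and Atp1b1 had no match to any of the motifs. Over the 250-base windows of 21770 protein-coding genes, 64.8% held an E-box, 2.79% a MEF2 match and 9.97% an NF-kB match. A match in letters says nothing of binding.

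By profile over the 4 libraries, the genes nearest to Kcna7 among 9314 protein-coding genes of at least 10 CPM were Mxd1, Tyk2 and Slc39a10. Their distances, as Euclidean distances of centred log2 CPM, were 0.149, 0.154 and 0.159. Mxd1, a partner of MAX, rose from 522 ± 27.4 to 826 ± 89.0 normalized counts, Tyk2, a Janus kinase, from 690.0 ± 3.93 to 1187 ± 130, and Slc39a10, a zinc importer, from 2007 ± 118 to 3347 ± 311. All 3 were called higher, with log2 fold changes of 0.66, 0.78 and 0.74 (adjusted p = 0.00113, 0.000121 and 5.29e-05, edgeR). They were chosen for a profile like that of Kcna7 in these same libraries. Their rise therefore follows from the choice and is no separate support for that of Kcna7.

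Kcnj2 (ENSMUSG00000041695, chr11:110956981-110967665, plus strand) was lower in both EDA-A2 libraries than in either control but was not called. It had 1304 and 1566 normalized counts in the controls and 1219 and 1235 after EDA-A2. The means were 1435 ± 185 and 1227 ± 11.3 (SD, n = 2), with a log2 fold change of -0.23 (SE 0.09, 95% interval -0.42 to -0.03, adjusted p = 0.216, edgeR). In the fit that combines length and GC offsets with a replicate block, Kcnj2 was called lower, at -0.33 (adjusted p = 0.00226). Without Control replicate 2, the higher control, the value was -0.09. Kcnj2 was the main Kir2 transcript, at 83.9% and 87.1% of the summed FPKM of 4 Kir2 genes in the controls and 86.5% and 85.3% after EDA-A2. The second, Kcnj12, had a log2 fold change of -0.32 (SE 0.19, adjusted p = 0.464). The genes nearest to Kcnj2 in profile were Crat, Rhot2 and Ccne1, at distances of 0.0109, 0.0223 and 0.0258, and none of them was called. Being chosen for that likeness, they are no separate evidence on Kcnj2.

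Kcnj11 (ENSMUSG00000096146, chr7:45743377-45750188, minus strand) gave almost the same value everywhere. The libraries had 46 and 45 counts in the controls and 45 and 47 after EDA-A2. Its log2 fold change was -0.04 (SE 0.26, 95% interval -0.60 to 0.52, adjusted p = 0.971, edgeR); at this depth a change inside that interval was not detectable. Under scaling to total counts the value was 0.02. Its partner genes encode the sulphonylurea receptors of the ATP-sensitive channel, and of their summed FPKM Abcc9 (SUR2) made up 93.3% and 89.6% in the controls and 94.6% and 92.5% after EDA-A2. Abcc9 itself had a log2 fold change of 0.10 (SE 0.09, adjusted p = 0.696). The other Kir6 pore gene, Kcnj8, had at most 2 counts in a library.

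Kcnn3 (ENSMUSG00000000794, chr3:89427460-89582439, plus strand) was the most abundant channel gene of the 7, and its controls lay far apart for a gene of that depth. Its normalized counts were 6074 and 4220.1 in the controls and 4959 and 4399 after EDA-A2. The treated libraries lay between the 2 controls. The log2 ratio of Control replicate 2 over 1 was -0.53, and of 5688 genes at or above a mean of 1000 normalized counts only 23 had control replicates at least as far apart. The means were 5147 ± 1311 and 4679 ± 396 (SD, n = 2), with a log2 fold change of -0.14 (SE 0.12, 95% interval -0.40 to 0.12, adjusted p = 0.683, edgeR). Without Control replicate 1 the sign turned, to 0.15. Of the summed FPKM of the SK genes and Kcnn4, Kcnn3 made up 87.7% and 87.3% in the controls and 85.4% and 83.4% after EDA-A2. Both treated shares were below both control shares. Kcnn1, the SK1 gene, had 0.58 (SE 0.20, adjusted p = 0.144) and was not called.

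**Figure D2:**
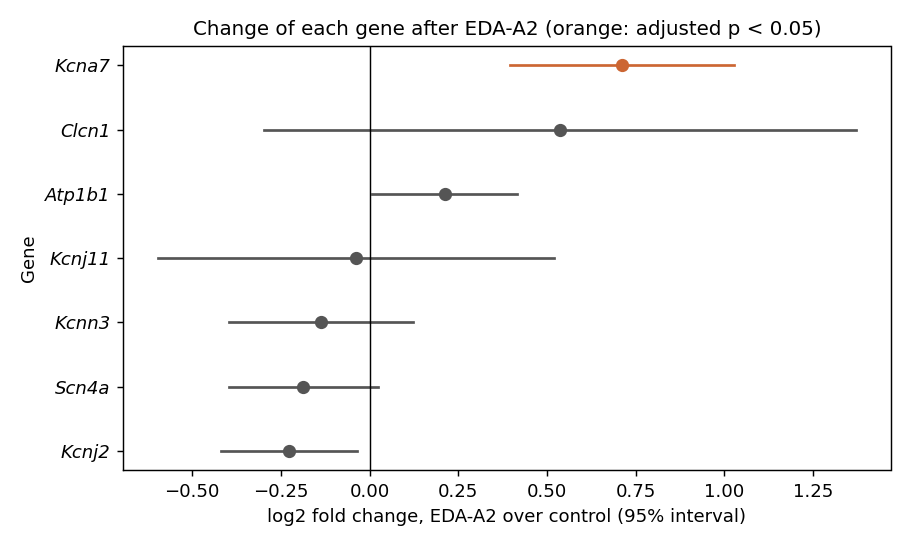
Log2 fold change of EDA-A2 over control for each of the 7 genes (points), with 95% intervals from edgeR (lines), in orange where the adjusted p was under 0.05. Kcna7 at 0.71 is the only gene called, and the intervals of Kcnn3, Scn4a, Kcnj11 and Clcn1 cross 0.

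Scn4a (ENSMUSG00000001027, chr11:106208370-106256385, minus strand) encodes the adult sodium channel of skeletal muscle. It had 904 and 915 normalized counts in the controls and 721 and 877 after EDA-A2. Both treated libraries were below both controls, the second of them only slightly. The means were 909 ± 7.80 and 799 ± 109.8 (SD, n = 2), with a log2 fold change of -0.19 (SE 0.10, 95% interval -0.40 to 0.02, adjusted p = 0.404, edgeR). The value was -0.05 without EDA-A2 replicate 1 and -0.33 without EDA-A2 replicate 2. Of the summed FPKM of 9 sodium channel alpha subunit genes, Scn4a made up 20.1% and 22.3% in the controls and 17.0% and 22.2% after EDA-A2, and the groups overlapped. The exons of Scn4a overlap those of Prr29 on the other strand by 85 bases. Prr29 had 12 to 43 counts and was not called, and the strand option of the counting is not given in the sources used here.

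Clcn1 (ENSMUSG00000029862, chr6:42263595-42292718, plus strand) was close to the limit of what these libraries can measure. It had 31 and 14 counts in the controls and 40 and 28 after EDA-A2, and the groups overlapped. The means were 23.0 ± 12.6 and 33.4 ± 8.27 normalized counts (SD, n = 2), with a log2 fold change of 0.54 (SE 0.39, 95% interval -0.30 to 1.37, adjusted p = 0.591, edgeR). It was 1.24 without Control replicate 1 and 0.06 without Control replicate 2. Among 7 ClC genes, Clcn1 made up at most 0.643% of the summed FPKM in a library, while Clcn5 and Clcn3, which encode endosomal exchangers, had means of 14.9 and 7.25 FPKM. Clcn5 and Clcn3 had log2 fold changes of -0.17 and -0.04 and were not called. Fam131b overlaps Clcn1 by 473 exon bases on the other strand and had 288 to 358 counts, more than Clcn1 itself. If strand was not used, reads in the shared bases would be set aside by HTSeq as ambiguous and left out of Clcn1. Whether this happened was not tested.

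Atp1b1 (ENSMUSG00000026576, chr1:164264678-164285957, minus strand) was higher in both EDA-A2 libraries than in either control but was not called. Its normalized counts were 1750.5 and 2238 in the controls and 2259 and 2363 after EDA-A2. The second control nearly reached the first treated library. The means were 1994 ± 344 and 2311 ± 73.0 (SD, n = 2), with a log2 fold change of 0.21 (SE 0.10, 95% interval 0.01 to 0.42, adjusted p = 0.296, edgeR). Without Control replicate 1 the value was 0.05, and without Control replicate 2 it was 0.40. Nme7 and Gm32391 overlap Atp1b1 on the other strand by 587 and 290 exon bases and were not called, with log2 fold changes of 0.14 and 0.34.

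Among the beta subunits of the pump, Atp1b1 was second to Atp1b3. Its share of the summed FPKM of the 4 Atp1b genes was 21.8% and 25.5% in the controls and 28.3% and 29.3% after EDA-A2, so the groups did not overlap. Atp1b3 (beta 3), with a mean of 40.8 FPKM, had a log2 fold change of -0.16 (SE 0.07, adjusted p = 0.243) and was not called. Fxyd6, a small regulator of the pump, fell by 0.38 on the log2 scale (SE 0.09, adjusted p = 0.0304). It did not pass without EDA-A2 replicate 1 (-0.30, adjusted p = 0.378), without EDA-A2 replicate 2 (-0.47, 0.0566), under scaling to total counts (0.0703) or in DESeq2 (0.0527).

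**Figure D3:**
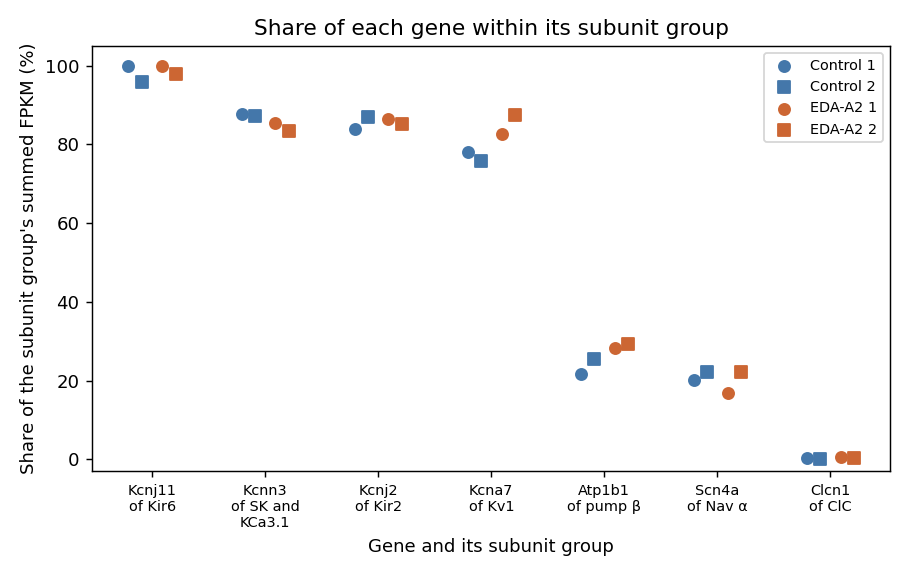
Share (%) of each of the 7 genes in the summed FPKM of its subunit group, per library, with controls in blue, EDA-A2 in orange, replicate 1 as circles and replicate 2 as squares. The Nav group holds 9 alpha subunit genes and the Kir6, Kir2, Kv1, pump and ClC groups hold 2, 4, 8, 4 and 7 genes. Kcna7 and Atp1b1 take larger shares in both EDA-A2 libraries than in either control, and Kcnn3 takes a smaller share in both. Clcn1 is at most 0.643% in all 4.

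Around these genes, 7 lists of channel and pump genes held 125 genes, 63 of which were tested. Of these, 8 were called (12.7%, against 4.57% of all genes tested), 4 higher and 4 lower. The median log2 fold change of the 63 was -0.07, against -0.00 over all genes tested. The lists were chosen with earlier results of these data known, and Kcna7 is among the 8, so the 12.7% is no test of an excess. Without either Control library 0 of the 8 passed, as for all genes. Without EDA-A2 replicate 2 the number higher was 1 and without EDA-A2 replicate 1 the number lower was 1.

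Voltage-gated potassium channels held 5 of the 8 calls among 18 tested of 38 listed. Of the 5, 4 were higher and 1 was lower, and Kcna7, Kcnc1 (Kv3.1) and Kcnh7 (erg3) were among those higher. Kcnc1 had 0.75 (SE 0.17, adjusted p = 0.0178), which was 0.62 without EDA-A2 replicate 2 (0.157). Kcnh7 was sparse, with 23 and 28 counts in the controls and 65 and 51 after EDA-A2. Its log2 fold change was 1.13 (SE 0.29, adjusted p = 0.0398), and it lost the call without each library in turn (0.95 to 1.29), in DESeq2 (adjusted p = 0.175) and with length and GC offsets (0.065).

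Sodium channel genes gave 1 call among 9 tested of 15 listed. Scn3b, which encodes the beta 3 auxiliary subunit and had a mean of 12.8 FPKM over the 4 libraries, had 3287 and 2745 counts in the controls and 2323 and 2455 after EDA-A2. Its log2 fold change was -0.39 (SE 0.09, adjusted p = 0.0174, edgeR), and without EDA-A2 replicate 1 it was -0.35 (0.0746) and without Control replicate 1 -0.24 (0.317). The genes Scn2b and Scn4b were listed at 0 in every library.

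The remaining channel lists gave 0 calls by edgeR. Chloride channels had 10 of 13 genes tested and 1 at an unadjusted p under 0.05, inward rectifiers with their receptors 6 of 17 and 1, calcium-activated channels 6 of 9 and 1, and K2P leak channels 3 of 14 and 0. The DESeq2 test also called 0 in each of these lists. Among calcium-activated channels Kcnn4 was the second most abundant at 1.82 FPKM, with 0.10 on the log2 scale. The leak channel genes of the highest level were Kcnk2 (TREK-1) at 7.86 FPKM and Kcnk13 at 1.37 FPKM, with -0.08 and -0.33. The pump list had 11 of 19 genes tested, 2 of them called, both lower.

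**Figure D4:**
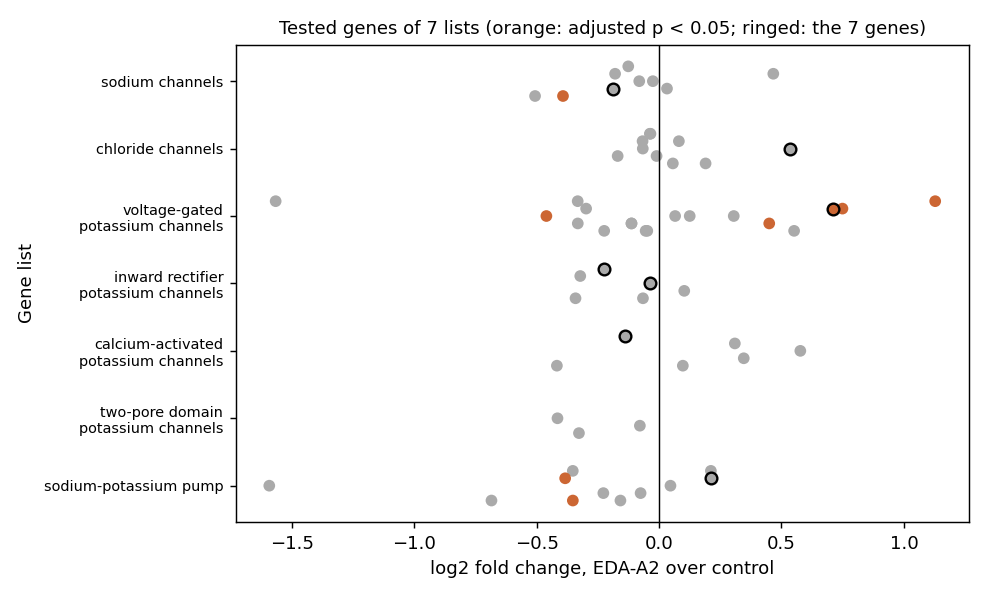
Log2 fold change of EDA-A2 over control for the 63 tested genes of the 7 lists (1 row per list), with called genes in orange and the 7 genes of the report ringed in black. Calls lie in the sodium channel, voltage-gated potassium channel and pump rows, and 4 of the 5 in the voltage-gated row are above 0.

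Other ion transporters of the surface membrane gave 1 call among 11 tested of 13 listed. Slc12a2, the sodium-potassium-chloride cotransporter NKCC1, rose from 6125 and 6999 counts to 8827 and 9081. The log2 fold change was 0.39 (SE 0.07, adjusted p = 0.00424, edgeR), and both treated libraries were above both controls. Leaving out single libraries gave log2 fold changes from 0.32 to 0.48 for Slc12a2, which like every gene lost its call when a Control library was missing. Slc12a2 kept the call in DESeq2 (adjusted p = 0.000167), under scaling to total counts (0.00269) and with length and GC offsets (0.0273). It was not called with no filter (adjusted p = 0.125). The calcium pump gene Atp2b1, with a mean of 22.3 FPKM over the 4 libraries, had 0.02 (SE 0.07).

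Of 6 regulators of these channels all were tested and 0 were called by edgeR, with 0 at an unadjusted p under 0.05. Mbnl2 and Celf1, splicing factors of which Clcn1 is a known target, had 20.8 and 20.7 FPKM and log2 fold changes of 0.03 (SE 0.07) and 0.01 (SE 0.07). Among 10 genes known to respond to denervation, to which Kcnn3 belongs, 9 were tested and all 9 had negative values, from -0.19 to -0.03. None of the 9 was called by edgeR, and 3 had an unadjusted p under 0.05. Their median was -0.14, against -0.00 over all genes tested. All 9 myotube markers described below were also negative, with a median of -0.25, and Myog is in both lists.

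Markers of the cells themselves were measured beside these results. Myotube markers were abundant, and 3 of 9 were lower after EDA-A2: Myh3, Myh8 and Acta1, with log2 fold changes of -0.57, -0.38 and -0.52 (adjusted p = 0.000199, 0.00535 and 0.00104, edgeR). The summed CPM of the 9 was 23338 to 24459 in the controls and 17996 to 18000 after EDA-A2. Markers of myoblasts and dividing cells were present, with 1193 to 1341 counts of Pax7 and 7583 to 9242 of Mki67, and 0 of 7 were called by edgeR, with 1 at an unadjusted p under 0.05. Of 6 fibroblast markers 4 were tested and 0 called by edgeR, and Lum and Thy1 were listed at 0. An unadjusted p under 0.05 was seen for 2, in opposite directions: Col1a1 at -0.46 and Dcn at 0.48. The summed CPM of the 6, mostly Col3a1, was 1676 to 1742 in the controls and 1599 to 1622 after EDA-A2. Schwann cell and neuron markers summed to 54.2 and 59.6 CPM in the controls and 73.4 and 79.2 after EDA-A2, with Tubb3 alone called, at 0.45, and Sox10 and Rbfox3 listed at 0. Endothelial and smooth muscle markers summed to 2.05 to 2.88 CPM and macrophage markers to 2.09 to 3.01 CPM. The part of the myotube and neuronal markers in the channel and pump results was not tested.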

How the data were processed

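Total RNA of 4 myotube libraries was prepared with a stranded mRNA kit. Per the labels' processing notes and the study's methods, reads were checked with FastQC 0.11.9 and MultiQC 1.12, trimmed with Trim Galore 0.6.5, mapped to GRCm39 with STAR 2.7.3a and counted with HTSeq 0.11.1. Each deposited file holds the raw counts of 1 library by Ensembl gene. The annotation release and strand option are not given in the sources used here. HTSeq's summary lines (no feature 6.68% to 7.40% of pairs) were left out. GENCODE symbols matched 52610 of 53647 genes.

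Counts were fitted with edgeR 4.0.16 in R 4.3.3 (TMM factors, filterByExpr with a minimum count of 10, glmQLFit without robust estimation, glmQLFTest) and a single term for condition. Benjamini-Hochberg adjustment ran over 15173 genes, with calls under 0.05. The standard error was taken as the fitted change over the root of F, and intervals cover 95%. FPKM used union exon length. Libraries of a condition differed by more than sampling noise (chi-square per gene 10.1 and 4.77), so each counted as 1 sample. Alternatives were other scalings, filters, DESeq2 1.42.0, a replicate block, length and GC offsets, protein-coding genes only, another length for FPKM and leaving out each library. The steps were tested on simulated counts.

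The 7 genes and all lists were chosen with earlier results of these data known. Named genes were the 7, in each list up to 6 called genes and the 2 of highest mean FPKM, and the 3 genes nearest in profile to Kcna7 and to Kcnj2. Family partners of the 7, genes overlapping them, and genes at 0 were named after their values were seen. Some genes that this rule names, and some sequences, are not reported here.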

Additional observations from a re-analysis of the deposited data

How the results depend on the processing

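The fold changes of the 7 genes and of the called channel, pump and transporter genes, and the counts of calls by list, were recomputed under 14 alternatives. Mean FPKM had 1 alternative length, and shares, markers and other genes not called had none. Scn4a, Clcn1 and Atp1b1 kept their direction and were not called under any of them. Kcnn3 ranged from -0.38 to 0.15 with each library left out, the latter without Control replicate 1, and Kcnj11 was 0.016 under scaling to total counts. Kcna7 stayed positive throughout (adjusted p from 2.74e-05 to 0.34). It was not called with no filter (0.71), and it ranged from 0.50 to 0.89 with each library left out. A fit without 1 library assumes that the lone sample of its condition varies like the other condition. Kcnj2 was called lower, at -0.33, with length and GC offsets plus a replicate block, and from -0.35 to -0.09 without each library it was not called.

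With no filter 25545 genes were tested, 64 higher and 22 lower in all, and 0 of the 7 genes and 0 of the channel and pump list genes were called in either direction. With each library left out, the 7 genes gave 0 to 1 call higher, sodium channels 0 to 1 lower, voltage-gated potassium channels 0 to 3 higher and 0 to 1 lower, the pump 0 to 1 lower, and all 7 lists 0 to 3 higher and 0 to 3 lower. The pump list had 1 call lower under total counts and 1 in DESeq2. With length and GC offsets plus a replicate block, 1 of the 7 genes, 1 chloride channel, 1 inward rectifier, 2 voltage-gated channels, 3 pump genes and 8 genes of all lists were lower, and 1 calcium-activated channel was higher. Over all genes, calls higher and lower were 294 and 271 in DESeq2, 263 and 409 with the offsets, 428 and 909 with offsets and block, and 485 and 194 under total counts.

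The labels give no shared batch for the replicate numbers. Over 15173 genes, the log2 difference of replicate 1 minus 2 in Control correlated at 0.06 with that in EDA-A2. With the replicate block alone, Kcna7 was 0.70 (adjusted p = 0.00215), no call among the 7 genes changed, and 537 genes were higher and 529 lower in all. The cause of these changes was not tested. Depth limits Clcn1 and Kcnj11, which had at most 47 counts per library. Intervals cover counting error and replicate spread only as far as 2 libraries show it.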
